A study of Homo sapiens with 4 samples.

Results

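PABPC4 peaks that lay inside 3′ UTRs but away from known transcript ends were examined. A peak was taken when its centre fell in a 3′ UTR of the GENCODE 44 annotation on the same strand and its 3′ end was more than 100 nt from every annotated transcript 3′ end. It was dropped when an A-rich stretch (a run of 6 A, or 7 A within 10 nt) lay in the 50 nt of genome downstream of it. Of 63507 distinct PABPC4 peaks, 20052 lay in 3′ UTRs, and 7580 of those ended over 100 nt from an annotated end. A-rich stretches removed 3367 of them. The remaining 4213 peaks, named unannotated ends here, made up 21.0% of the 3′ UTR peaks and 6.63% of all PABPC4 peaks, and they lay in 2996 genes.

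The peaks came from PAPERCLIP of PABPC4 with 2 samples of MDA-MB-231, a cell line established from a human breast cancer. Cells were irradiated at 254 nm with a dose of 400 mJ per square centimetre, and PABPC4 was pulled down with an antibody after RNase digestion. HNRNPC was mapped by CLIP in 2 further samples of the same line, and its peaks were used here for overlaps, distances and gene counts. In the study, PAPERCLIP served to follow the mRNAs on which both proteins act. The tags of both PABPC4 samples were pooled by the authors into 1 peak list, so no value had a spread between samples and no test between conditions could be made. Shares are therefore given with 95% Wilson intervals, differences between shares with Newcombe intervals and medians with order-statistic intervals, all of which cover counting error only. The height of a peak was the number of unique tags at its summit. Unannotated ends were set beside the other PABPC4 3′ UTR peaks in 2 classes, the 9107 peaks within 100 nt of an annotated end with no A-rich stretch downstream and the 6732 peaks before an A-rich stretch.

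Most mRNAs are cut and polyadenylated a short way downstream of a hexamer, AAUAAA or its variant AUUAAA, which the cleavage and polyadenylation specificity factor (CPSF) reads. Elements upstream (UGUA, bound by the NUDT21 subunit of cleavage factor I) and downstream (G- and U-rich, bound by the cleavage stimulation factor CSTF) add to the choice of site. Many genes have several such sites in the same 3′ UTR, and the site used sets how much of the UTR the mRNA keeps. PABPC4 binds the tail added there, and PAPERCLIP uses that contact to read the last bases of the mRNA body. A primer for the tail can also pair with an A-rich stretch inside an RNA.

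The last 30 bases of 16 unannotated ends are shown 5′ to 3′ in DNA letters of the GRCh38 (hg38) genome, each ending at the 3′ end of its peak. The first 7 held AATAAA or ATTAAA, written in capitals, at a distance from the end like that found at annotated ends.
HNRNPA2B1: atgatttAATAAAataattctaaaggaaat
MARCKS: aagcgaaaAATAAAtgtgAATAAAatgtac
ACTN4: AATAAAacatgtaatatttttaagaaggat
RPL15: acaggcttAATAAAttctttaaaaggagag
PSMB2: ttcagAATAAAggtgactatggatataatt
RAD23B: catggcatATTAAAagaaaaatcttaatag
CSTF1: ctgatAATAAAgctcagatctgcaacttta
The next 6 were tall ends with a run of A inside the peak, where the filter did not look, and the capitals mark the run.
LARP1: cataaaagaccAAAAAAAAAAAAAAAAtca
DNAJA1: caatgaggAAAAAAAAAttttgtagagaag
CAP1: actttaaaaggAAAAAAAAAAAAAAAAAAA
BTG1: aagatagaatggtAAAAAAAAAAAAAAttt
CALU: ctctccccgctgccAAAAAAAAAAAAAAAg
SYNJ2: cagaattctcttAAAAAAAAAAAAAAggac
The last 3 had neither, and the capitals in POLR2L mark AGTAAA, a rarer variant of the signal.
POLR2L: accatccAGTAAAggtctttcagaaccact
HSP90AA1: ctcagtttattggatatcccattactcttt
CPSF2: attctatcttttggctttcagagtgataga

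A poly(A) signal, AATAAA or ATTAAA starting in the last 40 nt of the peak, was found in 1503 of 4213 unannotated ends, or 35.7% (34.2 to 37.1). It was found in 68.8% (67.8 to 69.7) of peaks at annotated ends and in 28.0% (26.9 to 29.1) of those before A-rich stretches. Unannotated ends thus lay 33.1 percentage points below annotated ends (difference -33.1, interval -34.8 to -31.3) and 7.70 points above peaks before A-rich stretches (5.91 to 9.51). In the same 3′ UTRs cut into windows of 40 nt, 6.52% of 254312 windows held a signal. AATAAA stood in 25.7% of unannotated ends, against 55.4% of annotated ends and 3.80% of windows. ATTAAA stood in 11.3%, against 16.2% and 2.90%. The share with either signal at unannotated ends was thus between that of annotated ends and that of ordinary 3′ UTR sequence.

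Counted with 11 rarer variants, 13 hexamers in all, 57.9% (56.4 to 59.4) of unannotated ends held at least 1, against 82.2% of annotated ends and 26.7% of windows. Of the rarer variants, TTTAAA was the most frequent, in 9.07% of unannotated ends and 6.04% of windows. It was followed by AAGAAA in 6.01% and 3.80% and by TATAAA in 5.44% and 2.65%. Of the unannotated ends, 935 had 1 of the rarer variants without AATAAA or ATTAAA, and 1775 had none of the 13. A peak can hold several of the hexamers, and their letters can overlap, so the shares do not add up.

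Where a signal was present it stood where annotated ends have theirs. The most frequent start was 19 nt before the last base of the peak (-19) at unannotated ends and 20 nt before it (-20) at annotated ends. At peaks before A-rich stretches the most frequent start was 18 nt before the last base (-18). Of the unannotated ends with a signal, 89.1% had it start between 30 and 10 nt before the last base. Adenine made up 35.8% of the bases from -30 to -11 in unannotated ends and 39.9% in annotated ends, against 28.3% and 26.4% further upstream, from -99 to -50. Peaks before A-rich stretches had adenine in 35.5% from -30 to -11 and in 29.2% from -99 to -50. The last base of the peak was adenine in 16.1% of unannotated ends, while the next base in the genome was adenine in 44.5%. The same step was seen at annotated ends, with 15.4% and 48.4%, and at peaks before A-rich stretches, with 20.7% and 55.8%. An A of the genome next to the cut cannot be told apart from the first A of a tail, so the end of a peak is uncertain by the length of any such run.

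**Figure D1:**
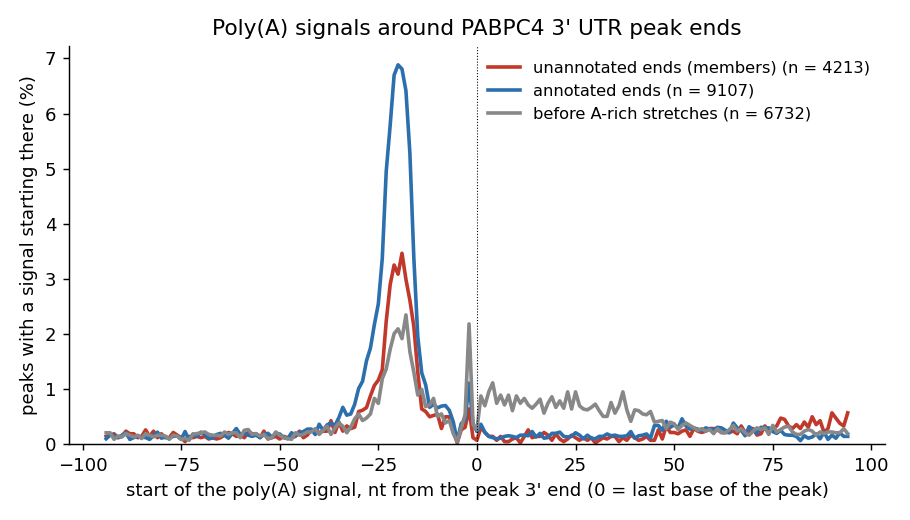
Percent of peaks (y axis) in which AAUAAA or AUUAAA starts at each position relative to the last base of the peak (x axis, nt), for unannotated ends, annotated ends and peaks before A-rich stretches. The curve of the unannotated ends peaks at -19 nt with 3.47% of peaks, that of the annotated ends at -20 nt with 6.88%.

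Other sequence elements differed less than the signal. UGUA (TGTA) stood in the last 100 nt of 51.8% (50.3 to 53.3) of unannotated ends, 53.8% of annotated ends and 40.6% of windows of that length. TGTGT or GTGTG stood in the 40 nt downstream of 13.3% (12.3 to 14.4) of unannotated ends, against 20.9% of annotated ends and 8.04% of windows. TTTTT stood there in 19.9% (18.8 to 21.2), against 21.3% and 13.4%. All motifs were read on the strand of the peak, and TGTGT and GTGTG can overlap. The difference from annotated ends was -2.00 points (-3.83 to -0.181) for TGTA, -7.58 points (-8.89 to -6.24) for the GU element and -1.39 points (-2.84 to 0.100) for TTTTT. The interval for TTTTT included 0, which does not show that both classes are alike.

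The width of the peak divided the unannotated ends into groups with unlike signal shares, in a split made after the values were seen. Of the 4213, 1932 (45.9%, 44.4 to 47.4) were 46 to 49 nt wide, near the 50-base read length that the methods give. Such a width was found in 20.9% of annotated ends, and the interval of the difference ran from 23.3 to 26.7 points. Peaks before A-rich stretches had it in 35.1%. In unannotated ends of that width, a signal was found in 13.1% (11.7 to 14.7). It was found in 54.0% (51.5 to 56.5) of the 1559 narrower ones and in 56.5% (52.9 to 60.1) of the 722 wider ones. Annotated ends showed the same dip, with 36.9% at 46 to 49 nt, 76.5% under and 77.9% over. Peaks before A-rich stretches did too, with 14.3% at 46 to 49 nt, 34.6% under and 36.8% over. A signal within 100 nt downstream but none upstream stood in 20.1% of the unannotated ends 46 to 49 nt wide, against 6.86% of narrower and 8.45% of wider ones. Why such widths go with fewer upstream signals was not tested.

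**Figure D2:**
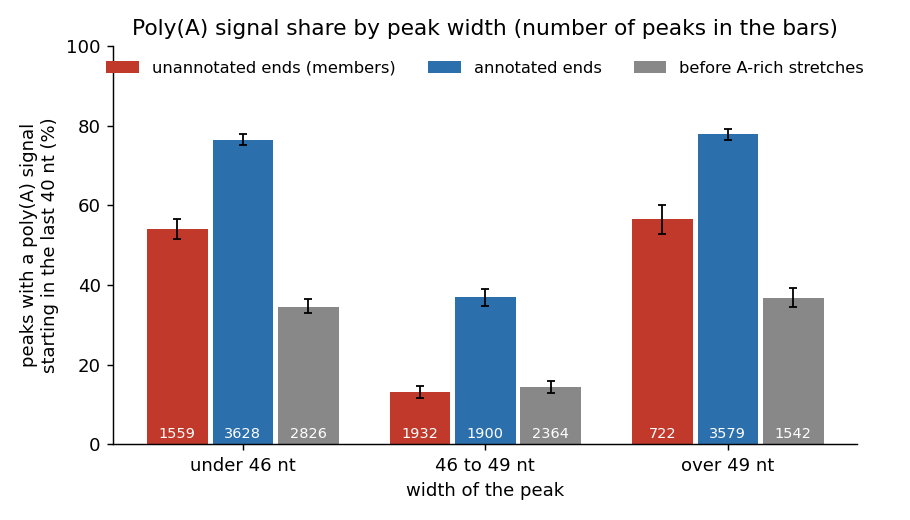
Percent of peaks with a poly(A) signal starting in the last 40 nt (y axis, with 95% Wilson intervals as error bars) by peak width (x axis) in the 3 classes of PABPC4 3′ UTR peaks. The share of unannotated ends falls to 13.1% at 46 to 49 nt, between 54.0% and 56.5% on either side.

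The unannotated ends close in front of a known end were mostly of that width. Of the 913 with an annotated end over 100 and up to 200 nt downstream, 61.2% (58.0 to 64.3) were 46 to 49 nt wide and 19.8% (17.4 to 22.5) held a signal. Those 46 to 49 nt wide held one in 6.44% and those of other widths in 41.0%. Farther from an annotated end, on either side, the share with a signal was 37.6% to 43.3% in every range of distance examined. The limit of 100 nt marked no step. The 187 unannotated ends over 100 and up to 110 nt from an annotated end had a median height of 37 tags and a signal in 20.9%, and the 193 peaks 91 to 100 nt from one, just outside the rule, had 33 tags and 20.7%. At the other limit, the 1301 unannotated ends whose richest 10 nt downstream held exactly 6 A had a median of 35 tags and a signal in 37.4%. The 973 peaks with 7 A in 10 nt, left out by the rule, had 37 tags and 32.1%.

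A-rich stretches upstream of the peak end were not part of the rule. One lay in the 50 nt up to the peak end in 1774 unannotated ends, 42.1% (40.6 to 43.6). The shares were 53.1% of annotated ends and 21.1% of windows of the same 3′ UTRs. Peaks before A-rich stretches had one in that window in 40.8% (39.7 to 42.0), and unannotated ends lay 1.26 points above them (-0.637 to 3.16). A signal adds A to such a stretch, and 1017 of the 1774 held one. The other 757 had an A-rich stretch and no AATAAA or ATTAAA, 486 had a signal without an A-rich stretch, and 1953 (46.4%, 44.9 to 47.9) had neither. At least 8 A in a row stood in 173 unannotated ends (4.11%, 3.55 to 4.75), against 2.88% of annotated ends and 1.56% of windows. Peaks before A-rich stretches had such a run in 4.28% (3.82 to 4.79). Among the 182 unannotated ends of 200 tags or more, a limit chosen after the values were seen, the same run stood in 19.8% (14.6 to 26.2) and a signal in 60.4% (53.2 to 67.3). The tallest unannotated ends therefore held both more signals and more A runs than the class as a whole. How many of them are cleaved ends was not tested.

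Most unannotated ends, 3964 or 94.1%, lay in a 3′ UTR of a protein_coding transcript. The other 249 lay only in 3′ UTRs of transcripts of other types. Of these 249, 216 had their centre in coding sequence of another transcript. A signal stood in 6.83% (4.31 to 10.7) of those 249 and in 37.5% (36.0 to 39.0) of the 3964. In all, 264 unannotated ends had their centre in coding sequence of another transcript.

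Along the 3′ UTR, unannotated ends were spread evenly. Their median position was 49.6% (48.3 to 51.2) of the way from the stop codon to the end of the longest 3′ UTR that held them, with quartiles of 23.7% and 76.6%. Each 10% of the UTR held between 8.57% and 11.2% of them. Peaks at annotated ends had a median of 98.8%, and 66.0% of them lay in the last 10%. The rule keeps unannotated ends away from annotated ends, so this contrast follows in part from the choice of the members. Peaks before A-rich stretches, which can lie at annotated ends, had a median of 61.2% (59.6 to 62.9). Of them, 28.5% lay in the last 10% of the UTR, and each earlier 10% held 6.80% to 8.97%. The 3′ UTRs around unannotated ends had a median of 2997 nt. The ends lay a median of 1199 nt (1161 to 1256) from the start of the UTR and 463 nt (440 to 496) from the nearest annotated end. That nearest end was downstream for 2850 and upstream for 1363. A signal stood in 33.5% (31.8 to 35.3) of the former and 40.2% (37.6 to 42.8) of the latter.

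**Figure D3:**
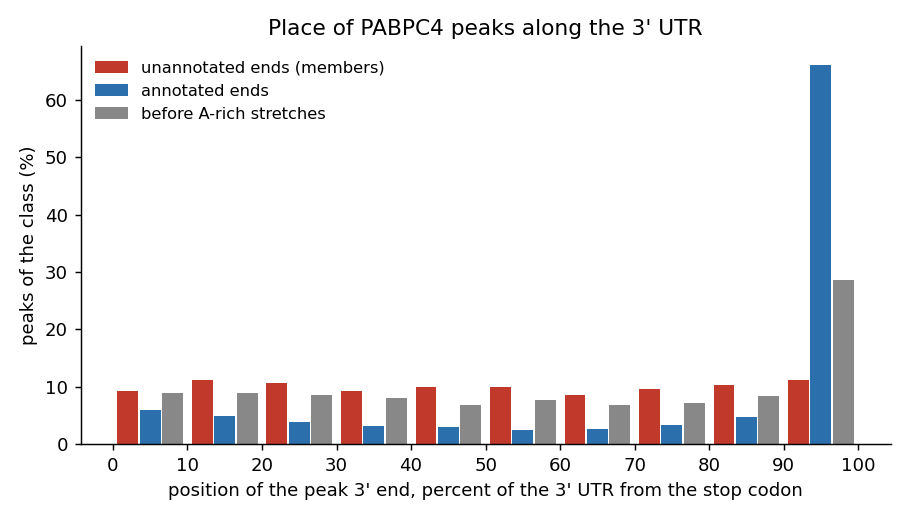
Percent of each class of peaks (y axis) in each 10% of the 3′ UTR from the stop codon (0) to its end (100, x axis). Unannotated ends fill every bin with 8.57% to 11.2%, while 66.0% of annotated ends lie in the last bin.

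Unannotated ends were lower than annotated ends. Their median height was 35 tags (34 to 37), with quartiles of 19 and 65 and a maximum of 2884, against a median of 53 tags (52 to 55) at annotated ends. Heights were not scaled to the level of each mRNA, so each was also divided by the tallest PABPC4 peak of its gene. The median was then 33.0% (31.4 to 34.6), with quartiles of 15.3% and 74.5%. It was 84.6% (81.4 to 88.1) for annotated ends. Peaks before A-rich stretches lay between, at 47.9% (45.8 to 49.5), with a median height of 44 tags (43 to 46). Of the unannotated ends, 14.1% reached at most 10% of the gene's tallest peak, and 807 (19.2%, 18.0 to 20.4) were themselves the tallest. So were 46.3% of annotated ends and 27.9% of peaks before A-rich stretches. Unannotated ends that were the tallest held a signal in 48.9% (45.5 to 52.4), the others in 32.5% (31.0 to 34.1). Between the quartiles of height the share with a signal was, from the lowest ends to the tallest, 33.5%, 34.9%, 31.6% and 42.5%, so that it was higher only in the tallest group.

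**Figure D4:**
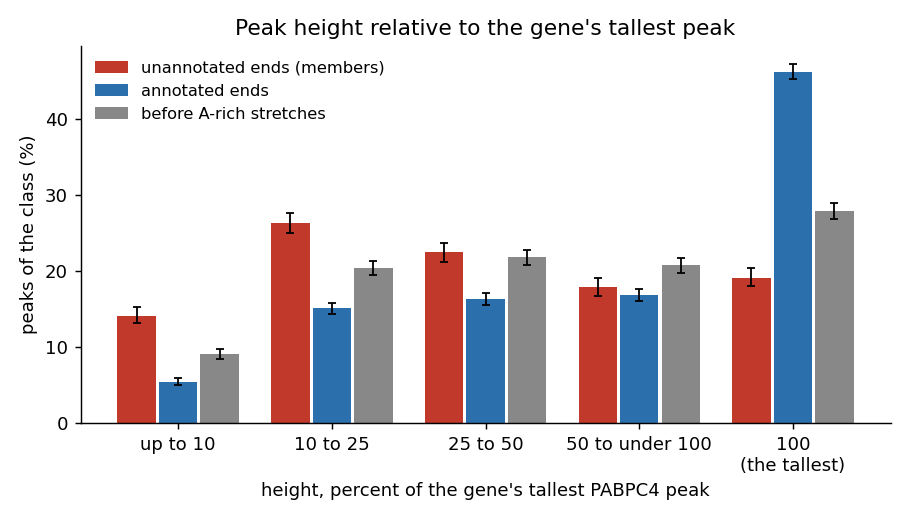
Percent of each class of peaks (y axis, with 95% Wilson intervals as error bars) by height relative to the tallest PABPC4 peak of the gene (x axis, percent). Unannotated ends are most often 10 to 25% of the tallest peak (26.3%) and are the tallest in 19.2%, against 46.3% of annotated ends.

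Of 9655 genes with a PABPC4 3′ UTR peak, 2996 (31.0%, 30.1 to 32.0) had at least 1 unannotated end. There were 2146 genes with 1, 596 with 2, 176 with 3, 53 with 4, 17 with 5, 6 with 6 and 2 with 7. Neighbouring unannotated ends of a gene lay a median of 600 nt apart, and 198 of the 1217 neighbouring pairs were within 100 nt. The genes with one had longer 3′ UTRs, with a median of 2855 nt (2746 to 2962) for the longest 3′ UTR of the gene, against 1595 nt (1551 to 1642) for genes without. Among genes whose longest 3′ UTR was at most 500 nt, 8.55% (7.07 to 10.3) had one. The share was 26.1% from 1000 to 2000 nt and 51.1% (48.8 to 53.3) over 4000 nt.

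In 1780 of the 2996 genes (59.4%) there was also a peak at an annotated end with no A-rich stretch downstream. The other 1216 had no peak of that class, though some of them, such as CAP1 and MKI67, had a peak at an annotated end before an A-rich stretch. Within the 1780 genes, the tallest unannotated end had a median of 59.8% (54.3 to 64.7) of the height of the tallest annotated-end peak, with quartiles of 22.9% and 145%. It was the taller of the pair in 590 genes (33.1%, 31.0 to 35.4) and equal in 21. It lay upstream, nearer the stop codon, in 1424 genes (80.0%, 78.1 to 81.8), by a median of 770.5 nt. Annotated-end peaks lay at a median of 98.8% of the 3′ UTR, and the rule keeps unannotated ends away from annotated ends. That share therefore follows in part from the choice of the members. In the 1216 genes without a peak of that class, unannotated ends held a signal in 42.4% (40.1 to 44.8), against 31.0% (29.2 to 32.8) in the 1780 genes.

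Of the 10 tallest unannotated ends, 8 were the tallest PABPC4 peak of their gene. The tallest of all, in HSP90AA1 (a cytosolic chaperone of the heat shock protein 90 family), reached 2884 tags at chr14:102085300-102085434 on the minus strand. It lay in coding sequence of the main transcript and in a 3′ UTR only of transcripts not annotated as protein_coding. It had none of the signals but AAGAAA. Its height was 45.5% of the gene's tallest peak, which had 6335 tags and stood before an A-rich stretch. The next, in HNRNPA2B1 (an RNA-binding protein of the HNRNP family), reached 1745 tags at chr7:26191843-26192059 on the minus strand. It had AATAAA at -22 and lay 39.3% along a 3′ UTR of 2709 nt, while the gene's other 3′ UTR peaks had 141, 77 and 40 tags. HNRNPA2B1, HSP90AA1, RPL15 and RPS21 have near-identical pseudogene copies elsewhere in the genome, so the origin of their tags is uncertain. Such copies of the other named genes were not examined.

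FOSL1 (a transcription factor of the AP-1 family) had an unannotated end of 1515 tags at chr11:65892202-65892371 on the minus strand, 153 nt upstream of the nearest annotated end, with AATAAA at -39. The gene's peak near an annotated end had 50 tags. POLR2L (a small subunit shared by the RNA polymerases) had one of 1171 tags at 26.5% of the 3′ UTR, with AGTAAA at -22, and 75 tags near its annotated end. TMA7 (a small protein associated with the translation machinery) had one of 1100 tags with AATAAA at -31 and a run of 7 A. It had 64 tags at its annotated end. In these 3 genes the unannotated end was the taller of both. In ACTN4 (alpha-actinin, an actin cross-linker) it was the lower. Its unannotated end of 1373 tags at chr19:38730382-38730532 on the plus strand, with AATAAA at -29, was 20.9% of the peak of 6570 tags near an annotated end upstream.

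MARCKS (a membrane protein that binds actin and is a substrate of protein kinase C) had 3 unannotated ends in a 3′ UTR of 2899 nt. The tallest had 1435 tags at chr6:113861693-113861803 on the plus strand and 2 copies of AATAAA, at -21 and -11. The others had 695 tags, with a run of 13 A, and 83 tags, with AATAAA at -21, while the annotated end had 174 tags. MARCKS therefore had both kinds of tall unannotated end, with a signal and with an A run, in the same 3′ UTR.

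Several of the tallest unannotated ends stood at A runs. LARP1 (an RNA-binding protein that controls translation of mRNAs for ribosomal proteins) had 1441 tags at chr5:154814709-154814918 on the plus strand, with 16 A in a row just before the end, and 271 tags at its annotated end. CAP1 (a factor in actin turnover) had 1072 tags at chr1:40072080-40072271 on the plus strand, ending in 19 A, and 137 tags at its annotated end, where the peak stood before an A-rich stretch. A run of at least 8 A stood in 4.11% of all unannotated ends and in 19.8% of those of 200 tags or more. The 5 tallest unannotated ends with none of the 13 hexamers all had a run of 9 to 15 A in their last 50 nt. In DNAJA1 (a co-chaperone of heat shock protein 70) that end had 1284 tags and 9 A, while a second end of the gene, with AATAAA at -23, had 217 tags and its annotated end 194. In NUCKS1 (a nuclear DNA-binding phosphoprotein) it had 1045 tags and 15 A. The ends in BTG1 (an antiproliferative factor that recruits deadenylases) had 850 tags and 14 A, in CALU (a calcium-binding protein of the secretory pathway) 633 tags and 15 A, and in SYNJ2 (an inositol phosphatase) 616 tags and 14 A. BTG1 had 420 tags at its annotated end, with AATAAA at -27.

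The 5 genes with the most unannotated ends showed them as series of mostly low peaks. YWHAB (a 14-3-3 adaptor protein) had 7, of 34 to 383 tags, none of them with AATAAA or ATTAAA, and its tallest peak, of 1090 tags, stood before an A-rich stretch. MTDH (a membrane protein often amplified in breast cancer) had 7, of 29 to 347 tags, 3 of them with a signal. The YWHAB end of 89 tags and the MTDH end of 45 tags had their centre in coding sequence of another transcript. RAD23B (a DNA repair and proteasome shuttle factor) had 6, of 23 to 455 tags. The tallest of these, with ATTAAA at -21, was the gene's tallest peak, and the annotated end had 57 tags. ZBTB7A (a transcriptional repressor) had 6 of 47 to 149 tags, and 2 of them had AATAAA. MKI67 (the proliferation marker Ki-67) had 6 of 40 to 123 tags, 2 with AATAAA, and its annotated-end peak of 134 tags stood before an A-rich stretch.

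**Figure D5:**
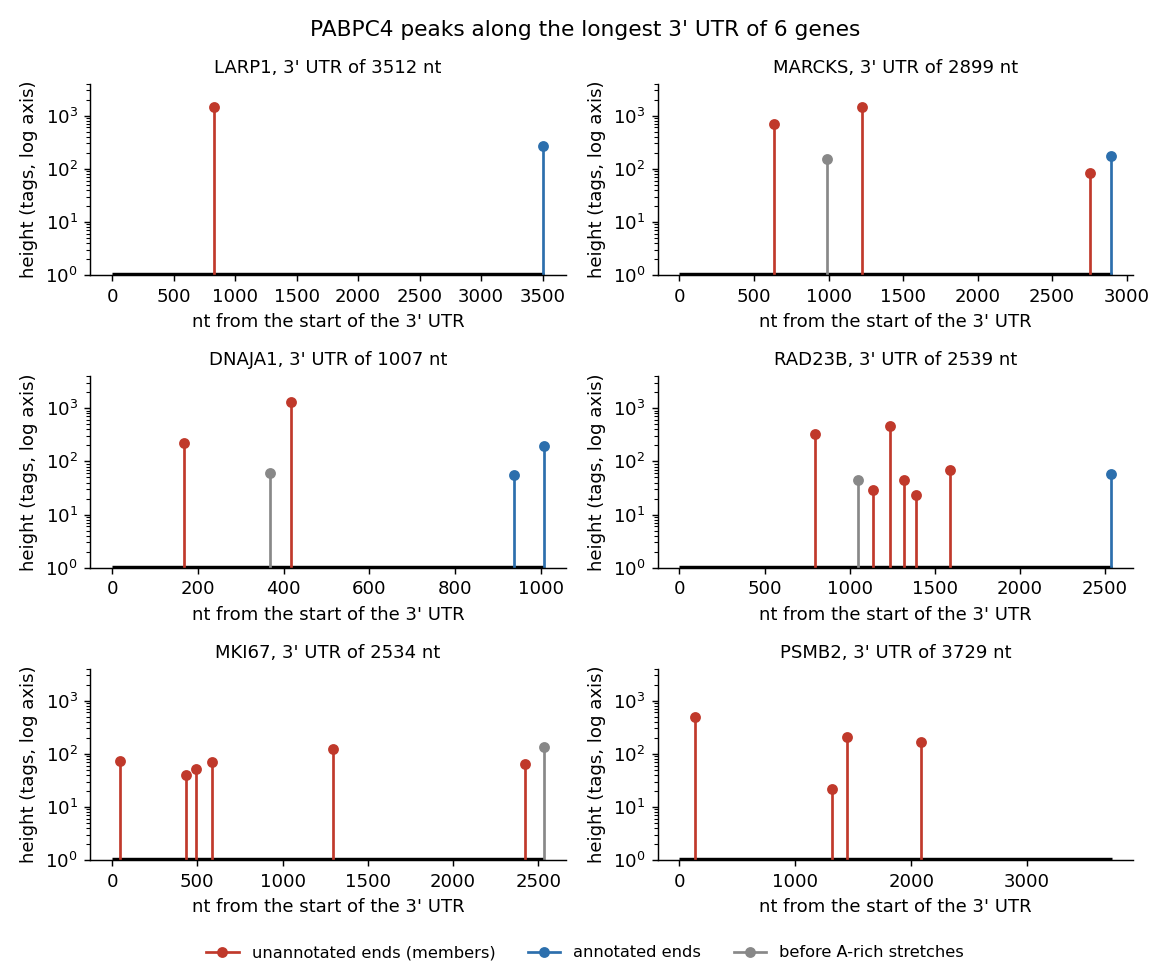
Height in tags (y axis, log scale) of the PABPC4 peaks along the longest 3′ UTR with a peak (x axis, nt from its start, black bar) in 6 genes, coloured by class. In LARP1, MARCKS, DNAJA1, RAD23B and PSMB2 the tallest peak is an unannotated end (1 further LARP1 peak, of 25 tags, lies in another transcript), and in MKI67 the tallest one shown stands before an A-rich stretch at the end of the 3′ UTR.

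Genes of gene families chosen for the machinery and for cancer biology were counted against the 31.0% of all genes. Except for RAB GTPases, the 95% interval of each family's share included that 31.0%. Among cleavage and polyadenylation factors, 8 of 19 genes with a 3′ UTR peak had an unannotated end (42.1%, 23.1 to 63.7). CSTF1, a subunit of CSTF, had one of 185 tags with AATAAA at -24, the gene's tallest peak, and one of 67 tags, with 32 tags at its annotated end. CPSF2, a subunit of CPSF, had 5 of 39 to 110 tags in a 3′ UTR of 10404 nt, 1 of them with AATAAA, and no other 3′ UTR peak. Of the poly(A)-binding proteins and their partners, 0 of 5 had one (interval up to 43.4%).

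Among HNRNP genes, which encode RNA-binding proteins of the nucleus, 10 of 20 had an unannotated end, and 11 of their 21 ends held a signal. HNRNPA0 had 3 of 310, 120 and 19 tags in a 3′ UTR of 7501 nt, the first 2 with AATAAA, and no other 3′ UTR peak. Among splicing factors of the SR family, 6 of 13 had one, and 7 of their 10 ends held a signal. SRSF6 had 3 of 205, 104 and 56 tags, each with AATAAA, beside 215 tags at its annotated end, and SRSF3 had 3, the tallest of 167 tags with ATTAAA at -20. Over all unannotated ends the share with a signal was 35.7%, and ends this few give no firm share for a family.

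Among RAB GTPases, which direct vesicle traffic, 22 of 40 genes (55.0%, 39.8 to 69.3) had an unannotated end, and 19 of their 39 ends held a signal. RAB8A had one of 195 tags with ATTAAA at -20, its tallest peak, and RAB7A one of 132 tags with ATTAAA at -24, beside 177 tags at the annotated end. Among cyclins and CDKs, which drive the cell cycle, 6 of 13 had one, and 1 of their 9 ends held a signal. That end was in CCNA2, with 100 tags and AATAAA at -24, against 126 tags at the annotated end. The 3′ UTR of CDK4 held a single PABPC4 peak, an unannotated end of 600 tags with AAGAAA at -29.

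The RAS and MAPK pathway had one in 3 of 13 genes, among them NF1 (an inhibitor of RAS). The end in NF1 had 58 tags and none of the hexamers, in a 3′ UTR of a transcript not annotated as protein_coding. Integrins, the receptors for extracellular matrix, had one in 3 of 12 genes. ITGA2 had 3 of 48 to 118 tags, none with a signal and 2 of them in coding sequence of another transcript, and ITGB5 had 2 of 29 and 70 tags. Ribosomal proteins had one in 13 of 59 genes (22.0%, 13.4 to 34.1), with a signal in 2 of their 16 ends, and their longest 3′ UTRs were short, with a median of 743 nt against 1977 nt for all genes. RPL15 had one of 870 tags with AATAAA at -21, next to 1325 tags at an annotated end. RPS21 had one of 396 tags next to 5493, with none of the hexamers and its centre in coding sequence of another transcript. Proteasome subunits had one in 9 of 34 genes, with a median longest 3′ UTR of 873 nt. PSMB2, a subunit of the proteasome core, had 4 unannotated ends and no other 3′ UTR peak. The tallest, of 494 tags at chr1:35603140-35603251 on the minus strand, lay 130 nt into a 3′ UTR of 3729 nt with AATAAA at -24. PSMD11, a subunit of the proteasome lid, had ends of 249 and 42 tags, both with AATAAA, beside 415 tags at an annotated end.

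Of 6 genes that the study named, 2 had unannotated ends, beside the 31.0% of all genes with a 3′ UTR peak. PDLIM5 (a cytoskeletal scaffold protein), KAT14 (an acetyltransferase subunit), TXNRD1 (thioredoxin reductase) and PABPC4 itself had 0 among their 3′ UTR peaks. PGK1 (a glycolytic kinase) had one of 67 tags, 172 nt upstream of an annotated end and with none of the hexamers, which was 8.9% of the gene's tallest peak. HNRNPC had 2, of 27 tags with ATTAAA at -25 and of 22 tags with none, against 278, 219 and 123 tags at its main annotated ends.

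The HNRNPC list used here held 519 peaks in 3′ UTRs. The study's own HNRNPC set also drew on further CLIP data that were not used here, so the counts that follow hold for this list alone. Of the 4213 unannotated ends, 7 (0.166%, 0.0805 to 0.343) overlapped an HNRNPC peak by at least 1 nt, against 31 (0.340%, 0.240 to 0.483) of the annotated ends and 1 of the peaks before A-rich stretches. Within 500 nt of an HNRNPC peak lay 76 unannotated ends (1.80%, 1.44 to 2.25), against 1.86% (1.60 to 2.15) of annotated ends and 0.995% (0.784 to 1.26) of peaks before A-rich stretches. An HNRNPC peak in a 3′ UTR was found in 192 of the 2996 genes with an unannotated end (6.41%, 5.59 to 7.34) and in 3.12% (2.73 to 3.57) of the genes without. Genes with an unannotated end had the longer 3′ UTRs, and the part of that length in the difference was not tested.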

How the data were processed

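Binding was mapped in 4 samples of MDA-MB-231 cells, 2 for PABPC4 and 2 for HNRNPC. The deposited signal of each peak was its height, the unique tags at the summit, pooled by the authors over both samples and not scaled to depth. Reads per sample were not analysed here. Beside the heights, the lists hold the authors' p-values, of which none is printed. For HNRNPC the methods give collapsing by UMI, trimming with cutadapt, alignment to hg38 with BWA 0.7.17 and peak calling with CTK, and the submitters' processing notes name the same UMI-tools, cutadapt, BWA and genome. The PABPC4 steps were not described separately. The list held 69778 entries, and entries of 1 position under several gene IDs were counted as 1 peak. Of the 4213 members, 201 had several gene IDs, and the gene ID of the list was the GENCODE gene for 4180.

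All 3′ UTRs of GENCODE 44 were used, with the stop codon counted in, and peak, hexamer and gene counts were computed with Python 3.11.15 and numpy 2.4.6, and figures with matplotlib 3.10.9. Positions refer to the transcript with the longest 3′ UTR that held the peak centre. The scripts were tested on simulated data. The members, gene lists, tests and most alternatives were chosen with earlier results of these data known. Genes were named by rule: those of the 10 tallest members, the 5 genes with the most members, the 5 tallest members that were the tallest peak of a gene with an annotated-end peak, the 5 tallest members without any of the 13 hexamers, 6 genes that the study named, and in each gene list the 2 genes with the tallest member. One gene that this rule names is not reported here. Alternatives changed the distances, the A-rich filter, the transcripts, the heights and p-values kept and the windows.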

Additional observations from a re-analysis of the deposited data

How the results depend on the processing

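The number of unannotated ends, 4213, stayed within 1.5 times of itself except in 3 settings, which by construction keep more or fewer peaks. It was 7580 with no filter on A-rich stretches and 2010 with heights at or above the median of the whole list (38 tags). It was 2439 when an A-rich stretch in the 50 nt up to the peak end was excluded too. The share with a poly(A) signal, 35.7%, was 31.8% and 40.2% with limits of 50 and 200 nt from annotated ends, 27.6% with no A-rich filter and 38.9% with that filter extended to 100 nt. It was 37.8% with the ends of basic transcripts only, 37.5% in 3′ UTRs of protein_coding transcripts, 37.5% at heights from the list median, 33.3% with the last 30 nt searched and 57.9% with any of the 13 hexamers. It was 19.9% without the ends that held an A-rich stretch in their last 50 nt, and 37.5% without those centred in coding sequence of another transcript; both settings were chosen after seeing the data. The signal itself is A-rich, so the former setting also removes ends for holding one. The median place, 49.6%, was 53.8% and 45.4% with limits of 50 and 200 nt, 47.7% with basic transcripts and 53.3% in the shortest 3′ UTR. The median height relative to the gene's tallest peak, 33.0%, was 35.7% with 200 nt, 36.3% with no A-rich filter, 35.6% with basic transcripts, 35.1% with the authors' p-value at most 0.001, 61.8% at heights from the list median, 44.8% for the tallest end of each gene and 30.5% without A-rich stretches in the last 50 nt. It was 72.7% relative to the tallest 3′ UTR peak with no A-rich stretch downstream. Of 53 alternative values, the other 27 stayed within 1.5 times the count of ends or, for shares and medians, inside the 95% interval of the value reported. Searching more hexamers or a shorter window, and dividing by the tallest of fewer peaks, fix the direction of their shifts. Keeping only tall ends, or the tallest of each gene, favours high relative heights by the choice itself. For the other shifts, where no construction is named, the cause was not tested. No paired analysis was possible because both PABPC4 samples stand in 1 pooled list, which also kept any sample from being left out.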
